A study of Mus musculus with 9 samples.

Results

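The genes described are the 6 that encode the urea cycle and its activating enzyme, Nags, Cps1, Otc, Ass1, Asl and Arg1, together with Glud1, whose product releases ammonia from glutamate. They were chosen by symbol for their known function, and the 7 are among 56748 genes in the deposited count table, of which 13042 were abundant enough to be tested. All 7 passed that filter. Bulk liver was taken from male mice of the C57BL/6J strain and its poly(A) RNA sequenced, with 1 library taken as 1 mouse. All mice ate a high-fat diet for 20 weeks from 8 weeks of age, and they were 28 weeks old at the end. During the last 4 weeks 1 group of 5 mice received formoterol at 1 mg/kg into the peritoneum each day, and the other group of 4 received the DMSO vehicle. Formoterol is a long-acting agonist of beta-2 adrenergic receptors, which raise cyclic AMP. Both groups shared the diet and the daily injections, and no chow-fed or uninjected mice were analysed here. Libraries held 12336665 to 20339665 counts. Libraries are named by the animal codes of the table, M46, M47, M48, M49 and M50 for formoterol and M56, M58, M59 and M60 for vehicle. The direction of every difference rests on reading the group from the suffix of those columns.

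The urea cycle converts toxic ammonia into urea for excretion, and its complete form runs mainly in hepatocytes around the portal vein. Glud1 and other enzymes release ammonia in mitochondria, where Cps1 joins it with bicarbonate into carbamoyl phosphate, a step that requires N-acetylglutamate made by Nags. Otc then forms citrulline, which leaves the mitochondrion. In the cytosol Ass1 adds aspartate, Asl splits off fumarate to leave arginine, and Arg1 cleaves arginine into urea and ornithine. Transcription of the cycle's genes is known to respond to glucagon and glucocorticoids, with cyclic AMP as a mediator of the former.

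Promoters were looked up because the genes of the cycle had higher mean levels in the formoterol group while Glud1 differed little, and 2 are shown that lie far apart in composition. RefSeq entries on GRCm38.p6 were matched for 4 of the 7 genes, Nags, Otc, Ass1 and Glud1. The 200 bases upstream of the annotated start are printed for Otc (chrX:10252105-10252304) and Glud1 (chr14:34310527-34310726), both on the plus strand, with CpG dinucleotides in capitals.
Otc: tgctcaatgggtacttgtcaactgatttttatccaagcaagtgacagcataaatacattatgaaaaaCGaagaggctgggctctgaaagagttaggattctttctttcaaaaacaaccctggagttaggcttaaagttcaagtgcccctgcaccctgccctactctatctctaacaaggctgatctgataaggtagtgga
Glud1: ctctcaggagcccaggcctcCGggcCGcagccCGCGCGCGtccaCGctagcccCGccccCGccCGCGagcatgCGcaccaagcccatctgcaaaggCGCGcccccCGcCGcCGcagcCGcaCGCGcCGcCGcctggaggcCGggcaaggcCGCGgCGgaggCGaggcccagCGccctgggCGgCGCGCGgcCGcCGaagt
The Otc sequence held 1 CpG and 42% G or C, and 10.6% of 32851 mouse promoters of that length held fewer CpG. The Glud1 sequence held 34 CpG and 82% G or C, and 98.9% held fewer. Nags had 10 CpG and Ass1 had 21, against a median of 5 over all promoters. Searched on both strands, the GC box GGGCGG, present in 31.0% of all promoters, was found in the sequences of Nags, Ass1 and Glud1 and not in that of Otc. The cyclic AMP response element TGACGTCA (1.47% of promoters), its shorter part TGACG (15.7%), which the full element contains, the glucocorticoid receptor half-site AGAACA (12.9%), the C/EBP motif TTGCNNAA (7.47%) and the HNF4 core CAAAGTCCA (0.317%) were found in none of the 4 windows. A match or its absence in a window of this length is a description of the letters only.

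The comparison asks whether transcripts of the nitrogen disposal pathway differed after 4 weeks of the agonist. Each of the 6 genes of the cycle averaged 1.34 to 1.62 times its vehicle level in the formoterol livers, whereas Glud1 averaged 1.12 times. No gene in the table passed the test with all 9 libraries, so none of these differences is a call. Levels are CPM, read counts scaled by effective library size with TMM factors, values per library run from M46 to M50 and then from M56 to M60, fold changes are log2 of formoterol over vehicle with their standard error (SE), and adjusted p-values are by edgeR's quasi-likelihood test with Benjamini-Hochberg adjustment over the 13042 genes and a threshold of 0.05.

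Among the mitochondrial steps, Nags (ENSMUSG00000048217; chromosome 11, 102036340 to 102040300 on mm39) makes the obligate activator of Cps1. It had 50.9, 43.2, 40.1, 33.3 and 33.9 CPM in the formoterol libraries and 29.2, 27.6, 27.3 and 36.3 CPM in the vehicle libraries. Vehicle library M60 lay above formoterol libraries M49 and M50, so the groups overlapped, and the other 3 vehicle libraries lay below all 5. Means were 40.3 ± 7.25 CPM (SD, n = 5) against 30.1 ± 4.22 CPM (SD, n = 4), a log2 fold change of 0.42 (SE 0.16, edgeR adjusted p = 0.248). Nags was the least abundant of the 7, with 335 to 688 counts per library, and its gene overlaps the antisense noncoding gene Gm11586, which never had more than 1 count.

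Cps1 (ENSMUSG00000025991; chromosome 1, 67162185 to 67270418), the synthetase that commits ammonia to the cycle, had 625, 688, 639, 374 and 413 CPM in the formoterol libraries and 364, 370, 298 and 447 CPM in the vehicle libraries. The formoterol group split into 3 libraries above 600 CPM and 2, M49 and M50, within reach of the vehicle values, with M60 again above both. Means were 548 ± 144 CPM against 370 ± 60.9 CPM (log2 fold change 0.57, SE 0.20, edgeR adjusted p = 0.226).

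Otc (ENSMUSG00000031173; chromosome X, 10118544 to 10187263) encodes the transcarbamylase that makes citrulline. It had 1194, 929, 1333, 724 and 798 CPM after formoterol and 550, 696, 538 and 759 CPM after vehicle. Only M60 (759 CPM) and M49 (724 CPM) crossed. Means were 996 ± 260 CPM against 636 ± 109 CPM (log2 fold change 0.65, SE 0.20, adjusted p = 0.191 by edgeR).

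Glud1 (ENSMUSG00000021794; chromosome 14, 34032684 to 34067222), the glutamate dehydrogenase that feeds ammonia into these steps, had a different layout. It had 1250, 858, 1262, 705 and 682 CPM in the formoterol libraries and 831, 808, 906 and 854 CPM in the vehicle libraries. The 4 vehicle libraries sat close together, M46 and M48 lay above them, and M49 and M50 lay below them. The SD was 286 CPM around a mean of 951 CPM after formoterol and 42.0 CPM around 850 CPM after vehicle (log2 fold change 0.16, SE 0.20, edgeR adjusted p = 0.758). With 1 library left out that fold change was 0.03 without M48, 0.04 without M46, 0.25 without M49 and 0.26 without M50.

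In the cytosol, Ass1 (ENSMUSG00000076441; chromosome 2, 31360219 to 31410684), the synthetase that brings in the cycle's aspartate nitrogen, had 2021, 2442, 2901, 1777 and 2081 CPM after formoterol. The vehicle libraries had 1084, 1262, 1183 and 2128 CPM. Vehicle library M60 stood far above the other 3 and above M46, M49 and M50, while those other 3 lay below every formoterol library. Means were 2244 ± 437 CPM against 1414 ± 482 CPM, a log2 fold change of 0.67 (SE 0.22, edgeR adjusted p = 0.205), and 0.93 without M60.

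Asl (ENSMUSG00000025533; chromosome 5, 130040100 to 130058090), the lyase that yields arginine and fumarate, had 585, 509, 627, 421 and 499 CPM in the formoterol libraries and 243, 384, 264 and 417 CPM in the vehicle libraries. The groups did not overlap, although M60 (417 CPM) and M49 (421 CPM) nearly met. Means were 528 ± 80.2 CPM against 327 ± 86.5 CPM (log2 fold change 0.69, SE 0.19, edgeR adjusted p = 0.173).

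Arg1 (ENSMUSG00000019987; chromosome 10, 24791119 to 24803382), the liver arginase that releases urea, had 2611, 2105, 2837, 1647 and 1715 CPM after formoterol. Vehicle values were 1029, 1448, 1285 and 1642 CPM, so the groups did not overlap but M60 and M49 were 5.55 CPM apart. Means were 2183 ± 530 CPM against 1351 ± 259 CPM (log2 fold change 0.69, SE 0.20), with an edgeR adjusted p of 0.181. The second arginase, Arg2, which is mitochondrial, had 0 to 4 counts per library and was too low to test.

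**Figure D1:**
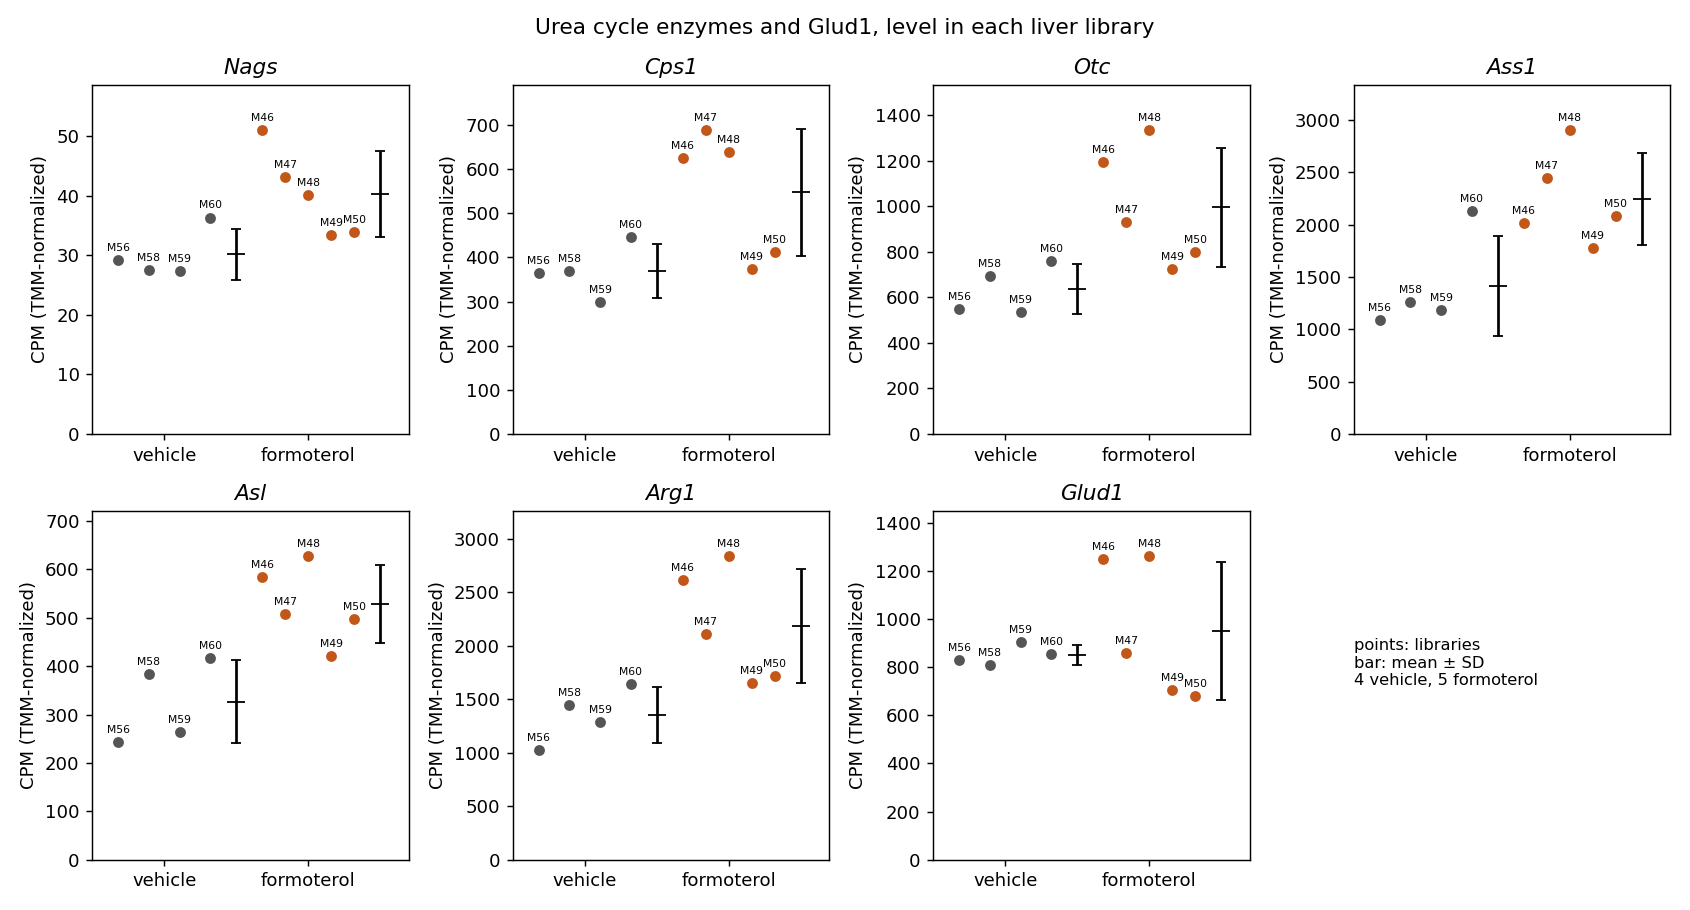
TMM-normalized CPM (vertical axes, from 0, 1 scale per gene) of Nags, Cps1, Otc, Ass1, Asl, Arg1 and Glud1 in 4 vehicle and 5 formoterol libraries. Points are libraries and bars are mean ± SD. For each gene but Glud1 the vehicle points other than M60 lie below every formoterol point, while the Glud1 vehicle points lie inside the formoterol range.

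Counted over the set, 0 of 7 passed the adjusted threshold, as did 0% of all genes tested. At an unadjusted p under 0.05, 6 of 7 were above vehicle (all but Glud1) and 0 below it, where 9.03% of all genes tested were above and 5.53% below. All 7 had a positive fold change, as did 48.7% of all genes, and 51.3% had a negative one. Asl and Arg1 had groups that did not overlap with formoterol above, which 2.45% of genes showed. The median log2 fold change of the 7 was 0.65, beside −0.01 for all genes tested. The mitochondrial 4 had a median of 0.49 and the cytosolic 3 of 0.69.

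Whether any of them passed depended on the tool, the filter and 1 library. DESeq2 gave Asl an adjusted p of 0.0273 and Arg1 of 0.0354, with Otc at 0.0532 and Ass1 at 0.0613, where it called 1.96% of the genes it gave an adjusted p higher. Limma-voom with sample quality weights called all but Glud1 (adjusted p from 0.0115 to 0.0280), as it called 6.07% of genes higher, and limma-voom without weights called 0 of 7 and 0 genes. With no filter on low counts, edgeR called Asl (adjusted p = 0.0330) and Arg1 (adjusted p = 0.0414), among 0.794% of genes called higher. Without formoterol library M49, edgeR called 4 of 7 higher, Asl (adjusted p = 0.0324), Arg1 (0.0329), Otc (0.0357) and Cps1 (0.0445), among 3.47% of all genes. Ass1 (0.0555), Nags (0.0919) and Glud1 (0.448) did not pass there, and no other single library left out gave any call among the 7.

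**Figure D2:**
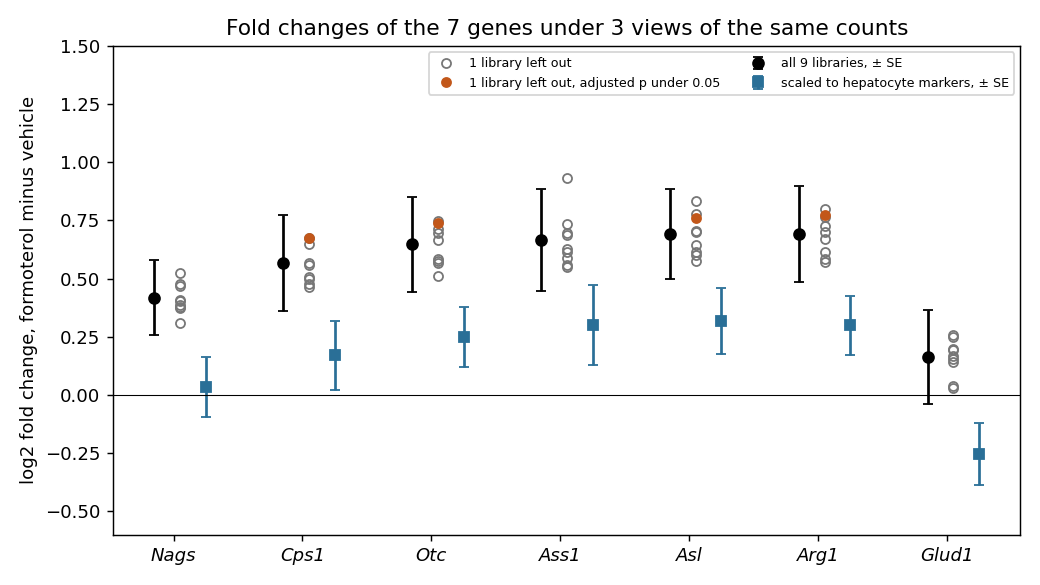
Log2 fold change of formoterol over vehicle (vertical axis) for each gene. Black circles with SE bars are all 9 libraries, open circles leave out 1 library each, orange circles are those with an edgeR adjusted p under 0.05, and blue squares with SE bars are scaled to hepatocyte marker counts. Orange circles appear for Cps1, Otc, Asl and Arg1 without M49, and the blue squares lie below the black circles for all 7, below 0 for Glud1.

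The 7 transcripts had similar profiles over the libraries, Glud1 least so. Averaged over the 7 as log2 deviation from each gene's mean of the 9 libraries, M48 was highest at 0.56, followed by M46 at 0.48 and M47 at 0.30. M50 at −0.01 and M49 at −0.13 overlapped with the vehicle group, in which M60 had 0.01, M58 −0.26, M59 −0.45 and M56 −0.49. M48 was the highest library for 5 of the 7 genes, and M56 and M59 were each the lowest for 3. The summed CPM of the 7 was 7490 ± 1599 after formoterol against 4978 ± 940 after vehicle, or 0.711 ± 0.141% of all counts against 0.529 ± 0.111%.

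**Figure D3:**
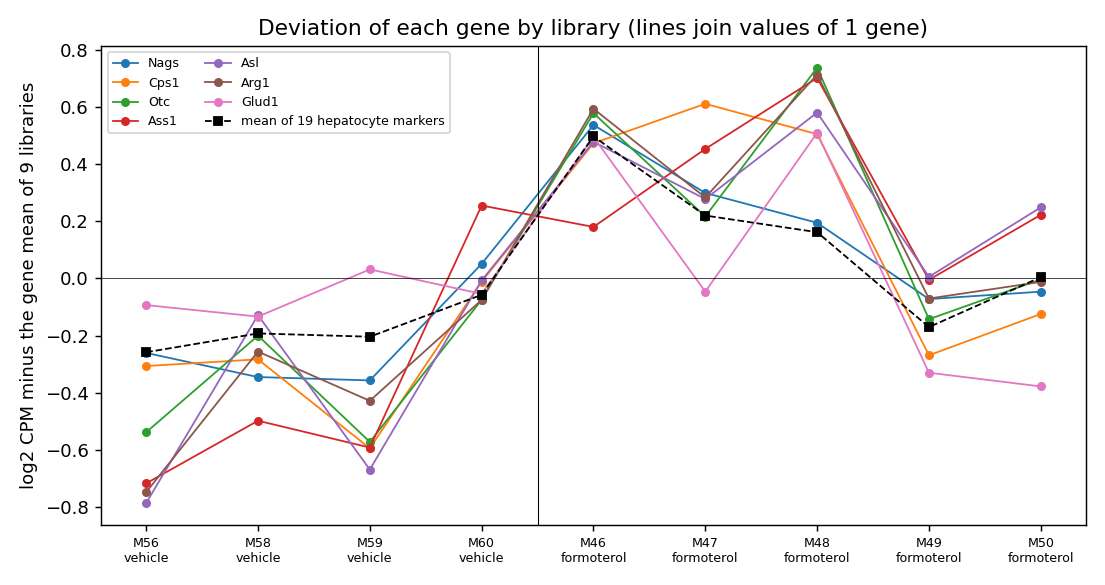
Log2 CPM minus the mean of the 9 libraries (vertical axis) for each gene in every library, with the mean of 19 hepatocyte markers as a dashed line. Lines join the values of 1 gene and do not stand for an order of libraries. The genes are high in M46 and M48, low in M56 and M59, and mostly between these levels in M49, M50 and M60, and Glud1 (pink) departs from the others in M47, M49, M50 and M59.

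Hepatocyte markers as a sum were also above their vehicle level after formoterol. The 19 hepatocyte markers tested were mostly secreted plasma proteins such as Alb, Apoa1 and Ttr. They summed to 129144 to 178427 CPM after formoterol and 110225 to 128599 CPM after vehicle. These sums did not overlap, although M49 and M60 nearly met, and Alb was their largest part. Averaged as log2 deviation, which weights each marker alike, the groups overlapped, with M49 (−0.17) below M60 (−0.06). At an unadjusted p under 0.05, 8 of 19 were higher and 0 lower, where 9.03% of all genes tested were higher. A negative fold change was found for 3 of 19. Apoa1, of high-density lipoprotein, had 15874 ± 2779 CPM against 8933 ± 1276 CPM, and Alb, serum albumin, had 85075 ± 13035 CPM against 66918 ± 4634 CPM. Expressed against the hepatocyte marker sum, the 7 came to 4.81 ± 0.43% after formoterol and 4.18 ± 0.50% after vehicle, with M60 (4.89%) above 3 formoterol libraries. Counts were also scaled to the sum of these markers, in which Alb weighs most. The log2 fold changes were then 0.03 for Nags, 0.17 for Cps1, 0.25 for Otc, 0.30 for Ass1, 0.32 for Asl, 0.30 for Arg1 and −0.25 for Glud1, and none passed. In bulk tissue, fewer cells of a type and less RNA per cell cannot be told apart.

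Stellate, endothelial and macrophage markers had median log2 fold changes of −0.34, −0.37 and −0.39, and among the formoterol libraries M46 had the lowest and M49 the highest sum of each list. The 14 stellate and fibroblast markers, led by Dcn, summed to 93.2 to 433 CPM after formoterol and 283 to 453 CPM after vehicle, with 0 of 14 lower at an unadjusted p under 0.05. The 12 endothelial markers summed to 51.3 to 161 CPM against 128 to 154 CPM (1 of 12 lower). The 13 Kupffer cell and macrophage markers tested, Clec4f and Lyz2 the most abundant, summed to 60.3 to 140 CPM against 114 to 175 CPM (3 of 13 lower). Cholangiocyte, lymphocyte, neutrophil and erythroid marker sums overlapped between the groups, and Ly6g and Mpo of neutrophils were at 0 in every library. Of 9 kidney and intestine markers, sites that hold urea cycle enzymes outside liver, 6 were at 0 in every library and only Fabp2, which liver also expresses, was abundant enough to test. Genes of the mitochondrial genome took 24.1 ± 8.78% of counts after formoterol (16.4% in M46, 38.6% in M50) and 28.9 ± 4.37% after vehicle. TMM factors computed without these genes gave a median of 0.64 for the 7. The part of the cell markers in the differences was not tested.

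Zonal markers were mixed in direction. Of 15 periportal markers other than the 7, 3 were above and 4 below vehicle at that unadjusted threshold (median log2 fold change 0.28). Over all genes tested, 9.03% were above and 5.53% below. A positive fold change was found for 10 of the 15. Those above included Pigr, which transports IgA (912 ± 94.4 against 584 ± 26.7 CPM, without overlap), and Igf1, insulin-like growth factor 1 (958 ± 241 against 548 ± 22.9 CPM). Those below included Apoa4, a lipid-responsive apolipoprotein (419 ± 322 against 1292 ± 414 CPM), and Cyp2f2, a cytochrome P450 (155 ± 33.2 against 247 ± 65.9 CPM). Of 16 pericentral markers, 2 were above, Cyp1a2 (502 ± 180 against 282 ± 63.5 CPM) and Rgn (2175 ± 635 against 1391 ± 133 CPM), and 2 below, the Wnt targets Axin2 (2.82 ± 1.38 against 5.39 ± 1.48 CPM) and Lgr5 (4.24 ± 1.502 against 6.55 ± 1.05 CPM), with a median of 0.10. The zonal markers named were singled out by their p, and none passed adjustment in edgeR with all 9 libraries (adjusted p from 0.159 to 0.325). Without M49, edgeR called 2 periportal markers higher and 4 lower, and 2 pericentral markers higher and 0 lower. It called 3.47% of all genes higher there and 2.04% lower. DESeq2 called 2 periportal markers higher and 1 lower, and 0 pericentral markers. Its shares were 1.96% higher and 0.826% lower of the genes it gave an adjusted p. Cyp2e1, the most abundant pericentral marker, had 6721 ± 1867 CPM against 5780 ± 311 CPM.

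Levels between genes were compared as CPM per kb of the deposited gene length. Over the 9 libraries Arg1 (814 CPM per kb) and Ass1 (777) were the most abundant, followed by Glud1 (215), Otc (197), Asl (90.8), Cps1 (84.4) and Nags (12.6). Arg1 and Ass1 did not differ beyond their spread in either group (980 ± 238 and 930 ± 181 CPM per kb after formoterol), nor did Asl and Cps1. Glud1 and Otc stood at 226 ± 67.9 and 235 ± 61.4 CPM per kb after formoterol and at 202 ± 9.97 and 150 ± 25.7 CPM per kb after vehicle. As shares of the summed CPM per kb of the 7, which do not depend on scaling between libraries, Arg1 took 37.6 ± 2.29% after formoterol and 36.01 ± 2.53% after vehicle, and Ass1 36.2 ± 4.00% and 34.1 ± 4.28%. Glud1 took 8.62 ± 1.18% against 12.3 ± 2.43%. The groups overlapped in the share of each of the 7, for Glud1 because formoterol library M46 (10.5%) lay above vehicle library M60 (9.30%).

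Ratios within a library likewise do not depend on scaling. Of the 21 pairs among the 7, only Otc over Glud1 and Arg1 over Glud1 had groups that did not overlap. The log2 ratio of Otc to Glud1 was −0.08, 0.10, 0.07, 0.03 and 0.22 in the formoterol libraries and −0.60, −0.23, −0.76 and −0.18 in the vehicle libraries. Every formoterol library lay above every vehicle library, M49 and M50 included, with means of 0.07 ± 0.11 and −0.44 ± 0.29. The log2 ratio of Arg1 to Glud1 was 1.98, 2.21, 2.09, 2.14 and 2.25 after formoterol and 1.23, 1.76, 1.42 and 1.86 after vehicle (means 2.13 ± 0.11 and 1.57 ± 0.29). Among 12622 genes, 231 (1.83%) had a ratio to Glud1 that was higher in every formoterol library. Both pairs were singled out by their values, so no test of a difference between Glud1 and the cycle's genes is given. The log2 ratio of Otc to Arg1 was −2.07 ± 0.04 after formoterol, the smallest SD of the 21 pairs in that group, and −2.01 ± 0.15 after vehicle, where Nags to Cps1 (SD 0.12) and Cps1 to Otc (SD 0.14) varied less.

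**Figure D4:**
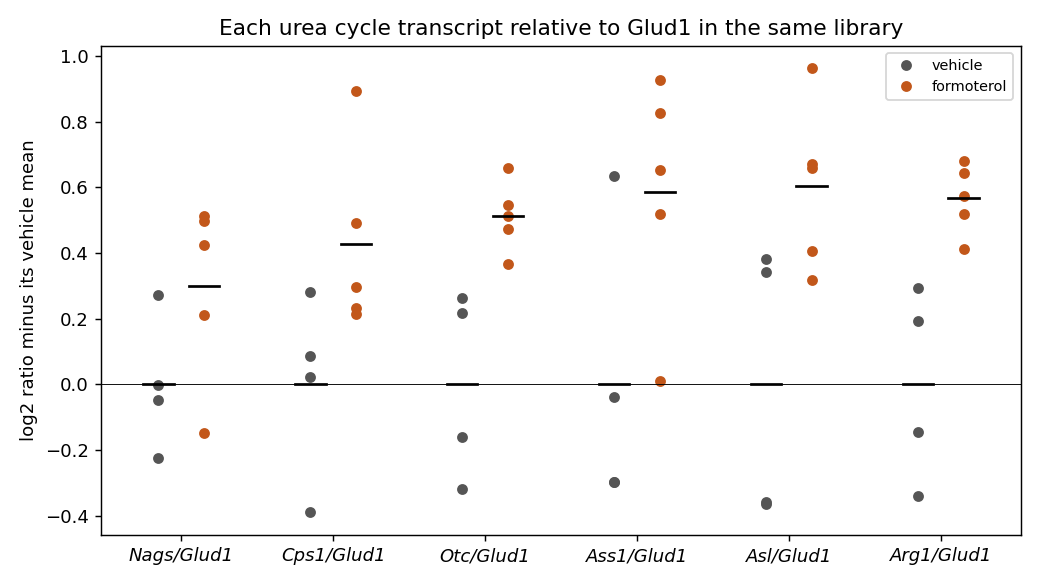
Log2 ratio of each cycle transcript to Glud1 in the same library, minus the mean of the 4 vehicle libraries (vertical axis). Points are libraries (grey vehicle, orange formoterol) and short bars are group means. Otc and Arg1 are the pairs in which all orange points lie above all grey ones, and the 4 others overlap.

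The surrounding pathway was described from 6 lists of 124 genes, of which 109 were tested. At an unadjusted p under 0.05, 13 of 109 (11.9%) were above vehicle and 5 (4.59%) below, near the 9.03% and 5.53% of all genes, and the median log2 fold change was 0.05. None passed the edgeR test with all 9 libraries.

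Among carriers and mitochondrial partners of the cycle, 14 of 16 genes were tested, and at that unadjusted threshold 2 were above and 1 below vehicle (median −0.03). The number above was 0 without M46, M48 or M56, 1 without M59 and 3 without M49, and the number below was 2 without M49. Slc25a22, a mitochondrial glutamate carrier, had 34.3, 42.1, 32.8, 58.1 and 56.8 CPM after formoterol and 74.1, 76.4, 65.2 and 72.5 CPM after vehicle. Its groups did not overlap, with formoterol below vehicle, as in 2.38% of all genes. Means were 44.8 ± 12.1 against 72.1 ± 4.87 CPM (log2 fold change −0.68, SE 0.18, adjusted p = 0.167 in edgeR). The gene passed with DESeq2 (adjusted p = 0.0324), which called 0.826% of the genes it gave an adjusted p lower, and in edgeR without M49 (adjusted p = 0.0191), which called 2.04% lower. Slc25a13, citrin, the carrier that exports aspartate for Ass1, had 148 ± 35.7 CPM against 109 ± 5.86 CPM, and Fh1, the fumarase that takes up the fumarate from Asl, had 253 ± 39.9 CPM against 195 ± 20.9 CPM. Slc25a15, which exchanges ornithine and citrulline, was at 151 ± 17.7 CPM and 132 ± 16.9 CPM. Car5a, which supplies bicarbonate to Cps1, was at 23.4 ± 3.22 CPM and 23.6 ± 3.25 CPM, and Sirt5, a deacylase that acts on Cps1, at 14.3 ± 0.87 CPM and 15.7 ± 2.50 CPM.

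Glutamine and ammonia scavenging showed 0 of 12 tested genes past an unadjusted p of 0.05 in either direction (median 0.08), and 2 above vehicle without M60. Glul, the glutamine synthetase of pericentral hepatocytes, had 1337 ± 218 CPM against 1290 ± 146 CPM. Gls2, the liver glutaminase that releases ammonia next to Cps1, had 292 ± 50.1 CPM against 228 ± 66.7 CPM, and Slc38a3, a glutamine transporter, had 1095 ± 108 CPM against 902 ± 203 CPM. M60 was the highest vehicle library for both of the latter, at 324 CPM for Gls2 and 1193 CPM for Slc38a3. Aqp8 (214 ± 76.3 CPM against 271 ± 58.6 CPM) and Slc1a5 (1.51 ± 0.94 CPM against 2.16 ± 0.65 CPM) of this list had lower means after formoterol. Of the 12 genes, 8 had a positive fold change and 4 a negative one.

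Enzymes that pass amino acid nitrogen to the cycle gave 5 above and 1 below of 23 tested (median 0.12). The number above was 3 without M47, M56 or M59 and up to 7 (without M46), and the number below was 2 without M49 and 0 without M60. Sdsl, a serine dehydratase-like enzyme, had 10.7, 10.99, 8.04, 9.65 and 7.71 CPM after formoterol and 3.145, 6.75, 5.57 and 6.07 CPM after vehicle, without overlap. Its log2 fold change was 0.81 (SE 0.24), with an adjusted p of 0.179 in edgeR and 0.0482 in DESeq2. Prodh2, which breaks down hydroxyproline, had 196 ± 35.3 CPM against 130 ± 38.5 CPM, and Gpt, alanine aminotransferase, 173 ± 25.5 CPM against 126 ± 30.1 CPM. The glycine cleavage system had members on both sides. Gcsh, its lipoyl carrier, had 93.8 ± 19.1 CPM against 64.4 ± 9.66 CPM, while Gldc, its decarboxylase, had 37.4 ± 8.88 CPM against 51.2 ± 7.49 CPM (edgeR adjusted p = 0.0424 without M49). Of the aspartate aminotransferases, cytosolic Got1 had 92.6 ± 13.8 CPM against 76.9 ± 7.18 CPM and mitochondrial Got2 358 ± 18.4 CPM against 369 ± 48.5 CPM. Oat, the ornithine aminotransferase, ranged from 944 to 3025 CPM after formoterol and from 683 to 1849 CPM after vehicle.

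Other uses of arginine and ornithine gave 3 higher and 1 lower of 20 tested (median 0.10). The number above was 1 without M47, M56 or M59 and at most 4 (without M49), and the number below was 2 without M48. Higher at an unadjusted p under 0.05 were Paox, which oxidizes acetylated polyamines (36.4 ± 4.64 against 26.6 ± 6.42 CPM), Gamt, the last enzyme of creatine synthesis (297 ± 35.8 against 223 ± 42.1 CPM), and Azin1, an inhibitor of antizyme (104 ± 25.7 against 78.0 ± 11.7 CPM). Lower was Ddah1, which degrades methylated arginines (59.8 ± 7.46 against 78.2 ± 7.79 CPM).

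Regulators known for urea cycle genes gave 2 higher and 1 lower of 23 (median 0.09). With 1 library left out the number above was 5 without M49, 3 without M58, 2 without M60 and 1 without any of the others, and the number below was 2 without M49, 1 without M50 or M59 and 0 without any of the others. Foxa3, a forkhead factor of hepatocytes, had 38.6, 22.8, 23.7, 18.2 and 18.6 CPM after formoterol and 11.1, 14.9, 17.4 and 18.1 CPM after vehicle. Its groups met almost without a gap, and M46 was far above the rest (log2 fold change 0.66, SE 0.23, edgeR adjusted p = 0.220). Nr3c1, the glucocorticoid receptor, had 62.6 ± 12.3 CPM against 48.9 ± 4.98 CPM, and Gcgr, the glucagon receptor, had 165 ± 33.4 CPM against 122 ± 39.7 CPM.

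Genes that respond to glucagon, glucocorticoids or cyclic AMP gave 1 higher and 1 lower of 18 tested, with a median of −0.22. The number above was 3 without M58, 2 without M46, M47 or M50 and otherwise 1, and the number below was 0 without M46, M47 or M58 and 2 without M49, M50 or M60. Tsc22d3, a target of the glucocorticoid receptor, had 94.3, 72.7, 73.9, 56.2 and 72.4 CPM after formoterol and from 38.9 to 56.6 CPM after vehicle. Only M49 lay within the vehicle range, and without it the gene passed in edgeR (adjusted p = 0.0395, against 0.194 with it). Crem, a modulator of transcription through cyclic AMP, had 12.7 ± 0.90 CPM against 10.1 ± 0.92 CPM without overlap (edgeR adjusted p = 0.347). Pde4b, a phosphodiesterase that degrades cyclic AMP, had 8.68 ± 2.07 CPM against 12.3 ± 2.55 CPM (edgeR adjusted p = 0.290). Adrb3, a beta-adrenergic receptor, had 7.23 ± 2.67 CPM against 4.56 ± 1.97 CPM (edgeR adjusted p = 0.364).

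**Figure D5:**
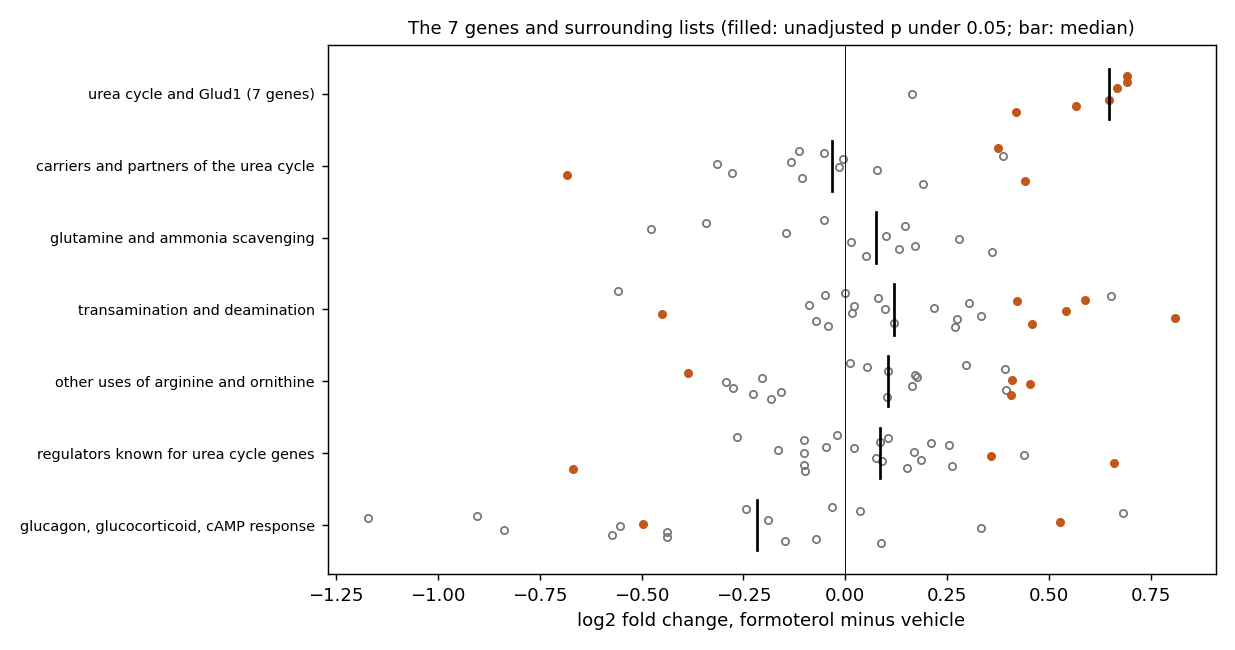
Log2 fold change of formoterol over vehicle (horizontal axis) for the 7 genes (top row) and the tested genes of 6 surrounding lists. Each point is a gene, filled where the unadjusted edgeR p is under 0.05, and vertical bars are medians. The median of the 7 is 0.65, and the medians of the lists lie between −0.22 and 0.12.

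Genes whose profile over the 9 libraries was most like the mean of the 7 were ranked by the root mean square difference of log2 CPM, each centred on its own mean. The median gene differed by 0.52. The 8 closest were Psme2b (0.06), Slc27a5 (0.07), Dmgdh (0.07), Gcsh (0.07), S100a1 (0.08), Jtb (0.08), Fahd1 (0.09) and Eloc (0.09). Slc27a5, the bile acid coenzyme A ligase, had 549, 535, 546, 376 and 398 CPM after formoterol and 291, 327, 302 and 441 CPM after vehicle. Dmgdh, which demethylates dimethylglycine in mitochondria, had 479, 379, 501, 292 and 327 CPM and 231, 258, 264 and 334 CPM. Both were high in M46 and M48 and had M60 above M49, as did most of the 7. Psme2b is a near-copy of Psme2, and its counts are uncertain. Of the 7 themselves Otc (0.09) and Arg1 (0.11) lay closest to their common profile and Ass1 (0.21) and Glud1 (0.28) farthest. Each of the 7 is part of that mean, which draws it closer. Among the genes tested Otc still ranked only 8 and Arg1 24, with Asl at 224, Ass1 at 646 and Glud1 at 1744. Many genes outside the cycle therefore lay closer to the profile than most of the 7.

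Neighbouring genes that share a start region were read as well. Shld2, which begins 234 bp from Glud1 on the opposite strand, had 14.6 CPM against 13.9 CPM (log2 fold change 0.07, SE 0.19, edgeR adjusted p = 0.899), and Crcp, 43 bp from Asl, had 18.4 CPM against 15.4 CPM (0.25, SE 0.17, edgeR adjusted p = 0.527). The noncoding gene Gm36172, 74 bp from Arg1, had 2.60 CPM against 2.38 CPM (0.13, SE 0.36, edgeR adjusted p = 0.903). The pseudogene of Glud1 had at most 15 counts in a library and that of Ass1 had 0, so few reads of the 7 were assigned to such copies.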

How the data were processed

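The authors deposited raw read counts per Ensembl gene, 1 column per library, with symbols, coordinates, biotypes and lengths on mm39. HISAT2 2.0.5, the build mm39 and DESeq2 (no version) are named, per the submitters' processing notes. How reads were counted, whether by strand and on which annotation, is not given in the sources used here, so reads of overlapping antisense genes cannot be told apart.

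Totals were 12336665 to 20339665 counts per library, which limits precision mainly for genes of low abundance. Columns carry group suffixes and animal codes but no replicate number of the labels. Each library was taken as 1 mouse, as the design text counts mice, and p-values set the difference between groups against the spread between these samples. No 2 libraries of a group agreed within counting noise (chi-square per degree of freedom from 24.7 to 235).

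Genes were kept by edgeR's filterByExpr (minimum count 10, minimum total 15, which came to 0.6 CPM in at least 4 libraries), leaving 13042 of 24041 genes with at least 1 count and over 99.8% of the counts of each library. Formoterol and vehicle were compared in R 4.3.3 with edgeR 4.0.16 (TMM factors, robust quasi-likelihood test, two-sided, Benjamini-Hochberg adjustment over all genes, threshold 0.05). Alternatives were DESeq2 1.42.0, limma-voom 3.58.1 with and without sample quality weights, other scaling factors, no filter, mitochondrial-genome genes left out of the factors, a gene-length trend, scaling to hepatocyte markers, and each library left out. On simulated counts of 12722 genes for this comparison, 200 of them changed, 43.9% of the 2-fold and 86.6% of the 4-fold changes were recovered by edgeR, and 11 of its 138 calls were false. Each gene was simulated independently, without shifts shared by the genes of a library. Changes below 2-fold, the size seen in the urea cycle genes, were not simulated, so these rates do not apply to them.

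The members, the lists and the tests were chosen with earlier results of these data known. Named genes are the members, up to 4 genes per pathway list with the smallest p, a fixed set of nitrogen genes, abundant genes of the marker lists, and the 8 genes with the most similar profile (log2 CPM with a prior count of 2). Some genes that this rule selects are left out of the text. Promoter sequences are from RefSeq on GRCm38.p6 and were not combined with mm39 coordinates.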

Additional observations from a re-analysis of the deposited data

Results flagged for a closer look

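Ass1 in the vehicle group was the 1 value that stood apart from the rest of its group. Vehicle library M60 had 2128 CPM, while the other 3 had 1084, 1262 and 1183 CPM. Its gap to the nearest of them only just exceeded the 95% limit of Dixon's test for 4 samples. The 7 genes in 2 groups made 14 such comparisons, and chance flags about 1 in 20. Without M60 the log2 fold change of Ass1 was 0.93 instead of 0.67. M60 was also the vehicle library with the highest Nags, Cps1, Otc, Asl and Arg1, without passing that limit.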

How the results depend on the processing

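The number of genes past the threshold was 0 in edgeR with all 9 libraries (at an unadjusted p under 0.05 it was 1178 above and 721 below vehicle), 314 with DESeq2, 1374 with limma-voom and sample quality weights, and 263 with no filter on low counts. It ranged from 0 to 702 with 1 library left out, with 702 without M49 and 4 without M60. The cause of these differences was not tested. The number of the 7 genes at an unadjusted p under 0.05 was 6, and from 4 (without M59) to 6 with 1 library left out, and their median log2 fold change of 0.65 ranged from 0.51 to 0.75. With library totals in place of TMM factors that median was 0.48 and the number was 4, and Glud1 had a log2 fold change of 0.000391. Over 19 alternatives for each of the 7 genes, 132 of 133 fold changes were positive. The exception was Glud1 scaled to hepatocyte markers, at −0.25. In 14 of the 133 a gene was past the threshold. Of 32 named pathway genes with 1 library left out, 3 reversed in 5 cases. Car5a ranged from −0.11 to 0.084 (0.03 without M50), Glul from −0.041 (without M50; −0.02 without M56) to 0.13, and Got2 from −0.12 to 0.033 (without M60). No paired analysis was possible because the columns of the count table carry no replicate numbers and the groups are separate mice. Such numbers alone would not have paired mice that each received 1 treatment. Other than Nags (335 to 688 counts), each of the 7 had at least 4175 counts in a library, so depth limits mainly genes of low abundance. The group of each column rests on its suffix.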
